A study of Homo sapiens with 2 samples.

Results

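The genes described here are the intermediate filament genes of NCI-H838 cells and the plakins that tie the filaments to the rest of the cell. They were picked by symbol from the deposited gene table and number 10 of 27685 genes. They are the type I keratins KRT18, KRT17 and KRT19, the type II keratins KRT8, KRT7, KRT80 and KRT81, vimentin (VIM), plectin (PLEC) and desmoplakin (DSP). NCI-H838 is an established line of human lung adenocarcinoma. Total RNA was taken 48 hours after transient transfection with pCDH-LINC00472, a plasmid with the full-length noncoding RNA LINC00472, or with the empty pCDH vector as the control. Each plasmid gave 1 library, so no difference was checked in replicates and no p-value can be given. Each interval covers counting error only. In bulk RNA, fewer cells that express a gene and less of its RNA per cell cannot be told apart.

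Keratins assemble as obligate pairs of a type I and a type II chain. KRT8 with KRT18 is the founding pair of simple epithelia such as the lung lining, and KRT7 and KRT19 join it in many ducts and adenocarcinomas. KRT17 is a keratin of basal and stressed epithelium, KRT80 an epithelial keratin and KRT81 a keratin of the hair shaft. Vimentin builds filaments by itself in mesenchymal cells and in many carcinoma lines in culture. Plectin cross-links filaments with actin, microtubules and hemidesmosomes, and desmoplakin anchors them at desmosomes.

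The LINC00472 library held 21093055 gene counts and the control library 54823706. LINC00472 itself had 5655 counts in the library labelled as overexpressing it, against 2563 in the control, a log2 ratio of 2.23 (95% counting interval 2.16 to 2.30) after scaling with TMM factors, which allow for differences in library composition. A gene is called lower or higher below where its mean level reached 1 CPM (counts scaled to library size), its ratio of LINC00472 over control was at least 2-fold and its 95% counting interval excluded equality. Among 14012 genes at that minimum, 23.8% were lower and 16.3% higher, and their median log2 ratio was -0.19. Levels are given as the deposited FPKM, which is per transcript length and so allows genes to be set beside each other within a library.

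Of the 10 genes, 9 reached the minimum. KRT18, KRT17, KRT8, KRT80, KRT7 and VIM were lower in the LINC00472 library, which makes 6 of 9 against the background of 23.8%. None was higher, against 16.3% of all genes. The same 6 genes met the rule under all 12 alternative settings, though the balance of all genes moved with the scaling. The counts deposited per library, 1 of the 12, were identical to those used and could not change a call. Another setting summed counts with near-identical copies and left 23.8% of all genes lower and 16.3% higher. The share of all genes that was lower was 16.3% with total counts, 14.2% with upper quartile factors, 18.2% with TMM from protein-coding genes, 15.2% with totals without the top 100 genes and 17.3% with FPKM. It was 23.5% with a prior count of 5, 22.0% and 26.2% with minimums of 0.1 and 5 CPM, and 23.8% with DESeq2 size factors or with adjustment for transcript properties. The share that was higher was 22.5% with total counts, 25.1% with upper quartile factors, 20.9% with TMM from protein-coding genes, 23.6% with totals without the top 100 genes and 15.5% with FPKM. It was 16.0% with a prior count of 5, 20.5% and 11.6% with minimums of 0.1 and 5 CPM, 16.3% with DESeq2 size factors and 12.9% with the adjustment. KRT81, PLEC and DSP did not meet the rule, and KRT19 was below the minimum. The median log2 ratio of the 9 genes was -1.81. Total counts as scaling gave a median of -1.52 and upper quartile factors -1.42, while the median of all genes moved to 0.11 and 0.21. Relative to all genes the median was -1.62 with TMM and -1.63 with either of these, -1.81 at a minimum of 0.1 CPM, and -1.06 after the adjustment for transcript length, GC content and introns.

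**Figure D1:**
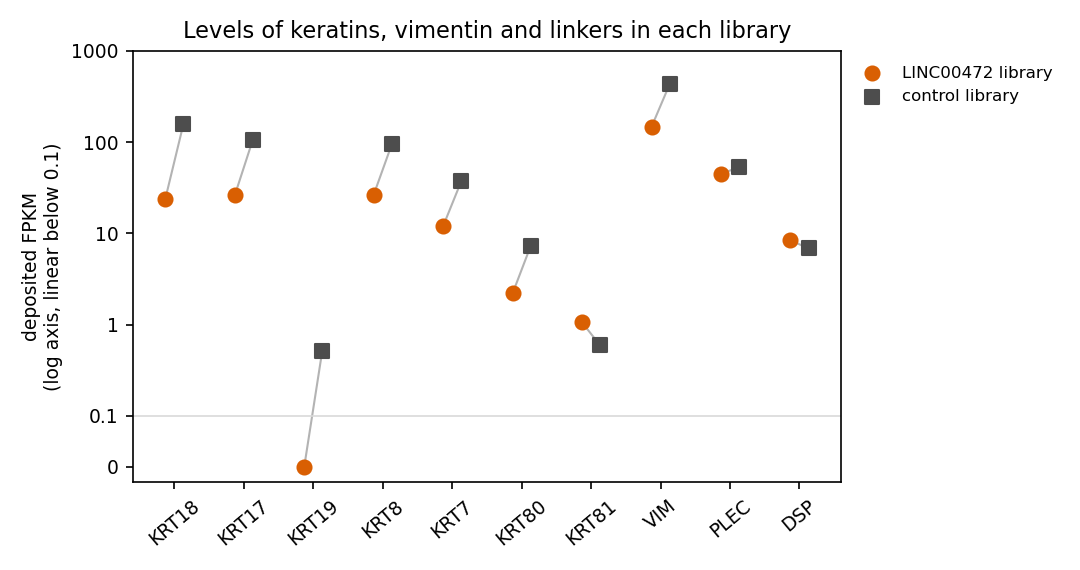
Deposited FPKM of each gene in the LINC00472 library (orange circles) and the control library (grey squares), 1 library each, on a log axis that is linear below 0.1. VIM is the highest, at 147 FPKM in the LINC00472 library against 428 in the control, the abundant keratins lie lower in the LINC00472 library, the 2 points of PLEC and of DSP lie close to each other, and KRT19 is at 0 in the LINC00472 library.

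KRT18 (NCBI gene 3875) had the lowest ratio of the 9 genes. It had 822 counts in LINC00472 cells against 13046 in the control, or 23.9 against 157 FPKM. The log2 ratio was -2.90 (interval -3.002 to -2.80), a 7.46-fold lower level. In the ranking of all genes by FPKM it stood at place 2769 in the LINC00472 library and at place 369 in the control.

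KRT8 (gene 3856), its pairing partner, had 1153 counts in LINC00472 cells against 9714 in the control, or 26.5 against 94.2 FPKM. It was 3.96-fold lower (log2 ratio -1.98, interval -2.07 to -1.90). KRT18 lay further down than KRT8. There were 1.40 counts of KRT8 for each count of KRT18 in the LINC00472 library against 0.745 in the control, a log2 difference of 0.91 (exact conditional interval 0.78 to 1.05), which no scaling between libraries can move. After the adjustment for transcript properties the difference was 0.50. KRT8 and KRT18 are neighbours in the RefSeq annotation, where their longest gene models overlap on opposite strands at their starts, and whether the counting used strand is not given in the sources used here.

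KRT17 (gene 3872), the other abundant type I keratin, had 966 counts in LINC00472 cells against 9508 in the control, or 26.1 against 106 FPKM, and was 4.62-fold lower (log2 ratio -2.21, interval -2.31 to -2.11). It lay less far down than KRT18 (log2 difference of KRT18 against KRT17 -0.69, interval -0.83 to -0.55). KRT8 lay less far down than KRT17 in the counts (log2 difference of KRT8 against KRT17 0.22, interval 0.09 to 0.36), and further down after the adjustment (-0.21).

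Among the type II keratins, KRT7 (gene 3855), a partner of KRT18 and KRT19 in simple epithelia, had 481 counts in LINC00472 cells against 3591 in the control, or 12.0 against 37.1 FPKM, and was 3.51-fold lower (log2 ratio -1.81, interval -1.95 to -1.67). KRT80 (gene 144501) was measured at a lower level, with 202 counts in LINC00472 cells against 1602 in the control, or 2.205 against 7.27 FPKM, and was 3.72-fold lower (log2 ratio -1.90, interval -2.12 to -1.69). KRT80 did not separate from KRT7 or KRT8 in the counts, with log2 differences of 0.09 for KRT7 against KRT80 (interval -0.17 to 0.35) and -0.09 for KRT8 against KRT80 (interval -0.32 to 0.15). After the adjustment for transcript properties the difference was 0.41 for KRT7 against KRT80 and -0.06 for KRT8 against KRT80. KRT7 lay slightly less far down than KRT8, with a log2 difference of 0.17 (interval 0.01 to 0.34) that was 0.47 after the adjustment.

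KRT19 (gene 3880), the smallest keratin, which lacks a tail domain and is widespread in lung adenocarcinoma, was at the edge of detection. It had 0 counts in LINC00472 cells against 44 in the control (0.520 FPKM), too few for the minimum of 1 CPM. Against a floor of 3 counts per library it was at least 6.89-fold lower. Such floors, also used below, take the control count as exact, and the counting interval of KRT19, which does not, ended at a log2 ratio of -2.43. Of 554 protein-coding genes with 30 to 60 counts in the control, 52 (9.39%) also had 0 in the LINC00472 library, a range of counts chosen after the values were seen.

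KRT81 (gene 3887), the hair keratin, had a ratio above equality that did not reach 2-fold. It had 48 counts in LINC00472 cells against 65 in the control, or 1.06 against 0.592 FPKM, with a log2 ratio of 0.65 (interval 0.08 to 1.21). It reached 1.03 with upper quartile factors and 1.13 when adjusted for transcript properties, and met the rule in both cases. KRT81 shares a run of 605 identical coding bases with KRT86, another hair keratin, whose gene overlaps it in the RefSeq annotation. KRT86 had 23 counts in LINC00472 cells against 43 in the control, and the summed counts gave a log2 ratio of 0.48. Coding bases 61 to 120 of KRT81 in GENCODE 29 are shown because they are identical in both genes, so a read from within them fits either:
KRT81 and KRT86: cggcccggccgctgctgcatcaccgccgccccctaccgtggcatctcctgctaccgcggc

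The same holds in part for KRT17 and its relatives KRT14 and KRT16. Their coding sequences were 77.6% and 72.0% identical to that of KRT17, with longest shared runs of 59 and 61 bases. Coding bases 259 to 318 of KRT17, nearly the same in all 3 genes, are shown with the base that varies in capitals:
KRT17: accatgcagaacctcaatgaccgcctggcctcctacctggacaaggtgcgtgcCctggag
KRT14: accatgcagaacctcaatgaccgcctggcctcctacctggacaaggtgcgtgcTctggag
KRT16: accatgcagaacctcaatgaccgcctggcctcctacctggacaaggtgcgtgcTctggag
KRT14 had 0 counts in LINC00472 cells against 64 in the control, and KRT16 had 3 against 169, far fewer than KRT17 in either library. The 9 keratin pseudogenes of the table, none at the minimum, held 0 counts in LINC00472 cells against 7 in the control, 4 of them in KRT18P55.

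**Figure D2:**
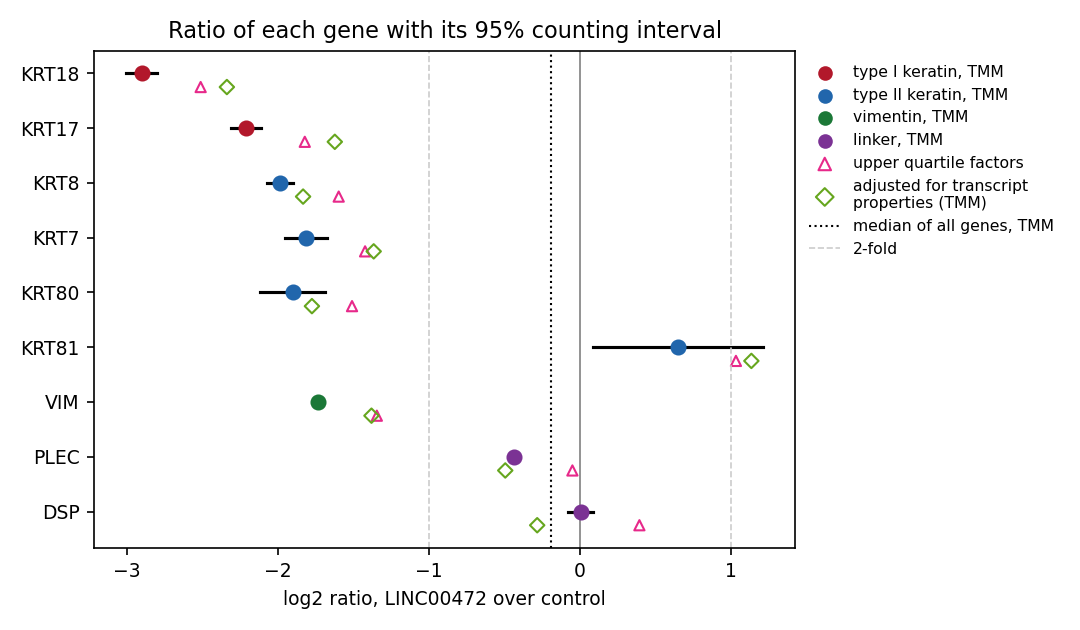
Log2 ratio of LINC00472 over control for the 9 genes at the minimum (filled circles, with black bars for the 95% counting interval, narrower than the symbol for VIM and PLEC), with the same ratio under upper quartile factors (triangles) and after adjustment for transcript properties (diamonds). KRT18, KRT17, KRT8, KRT7, KRT80 and VIM lie beyond -1 in all 3, KRT81 passes 1 in both alternatives, and PLEC and DSP stay within 2-fold.

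The balance of type I and type II transcripts differed between the libraries. The 3 type I keratins summed to 49.98 FPKM in the LINC00472 library against 263 FPKM in the control. The 4 type II keratins summed to 41.8 FPKM in the LINC00472 library against 139 FPKM in the control. These FPKM sums are not adjusted for transcript properties. Type I transcripts stood to type II transcripts as 1.20 in the LINC00472 library against 1.89 in the control. With all other keratins of the table added, the ratio was 1.29 in the LINC00472 library against 1.89 in the control. KRT18 made up 26.0% of the summed FPKM of the 7 keratins in the LINC00472 library against 38.9% in the control. KRT8 made up 28.9% in the LINC00472 library against 23.4% in the control, and KRT17 made up 28.5% in the LINC00472 library against 26.4% in the control. The order of the keratins by level was accordingly KRT8, KRT17 and KRT18 in the LINC00472 library and KRT18, KRT17 and KRT8 in the control. In the LINC00472 library these 3 lay within 23.9 to 26.5 FPKM, whereas in the control they spanned 94.2 to 157 FPKM.

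**Figure D3:**
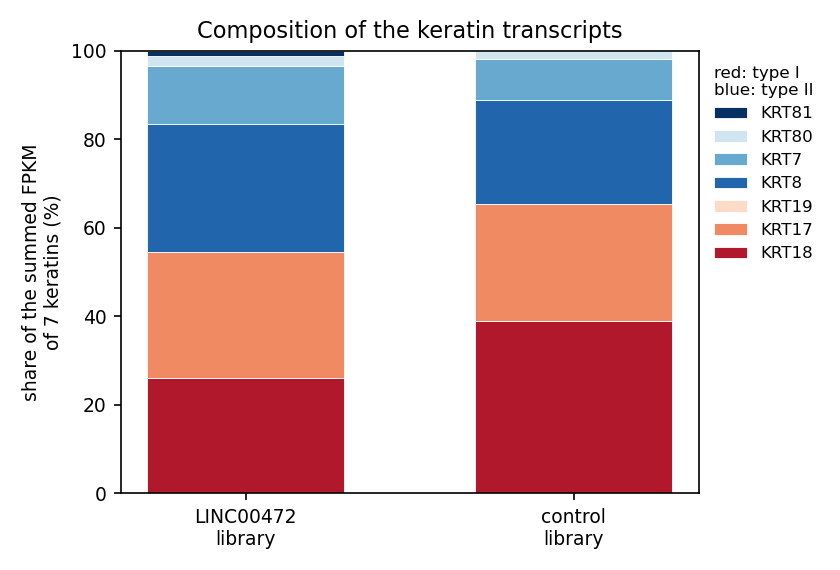
Share of each of 7 keratins in their summed FPKM (%), type I in reds and type II in blues, for the LINC00472 library (left) and the control library (right), 1 library each. The share of KRT18 is 26.0% in the LINC00472 library against 38.9% in the control.

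VIM (gene 7431) was the most abundant of the 10 transcripts per length in both libraries of this adenocarcinoma line. It had 7362 counts in LINC00472 cells against 52063 in the control, or 147 against 428 FPKM, and was 3.32-fold lower (log2 ratio -1.73, interval -1.77 to -1.70). Its place among all genes by FPKM was 187 in the LINC00472 library against 123 in the control. VIM lay at 1.60 times the summed FPKM of the 7 keratins in the LINC00472 library and at 1.06 times in the control. Within the libraries it did not separate from KRT7 (log2 difference of KRT7 against VIM -0.08, interval -0.22 to 0.06), and it lay less far down than KRT18 (KRT18 against VIM -1.17, interval -1.28 to -1.06).

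VIM-AS1, a noncoding RNA on the opposite strand that overlaps the start of VIM in the RefSeq annotation, was higher. It had 225 counts in LINC00472 cells against 136 in the control, or 5.12 against 1.27 FPKM, a 3.51-fold ratio. Without a known strand setting, reads of VIM and VIM-AS1 in their overlap cannot be told apart, but VIM-AS1 held few counts beside those of VIM. KRT7-AS, on the opposite strand of KRT7, had 0 counts in both libraries.

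The linkers, like the scarce KRT81, were not among the lower genes. PLEC (gene 5339) had 15591 counts in LINC00472 cells against 44960 in the control, or 44.7 against 53.2 FPKM, with a log2 ratio of -0.44 (interval -0.46 to -0.41). DSP (gene 1832) had 1750 counts in LINC00472 cells against 3711 in the control, or 8.37 against 6.86 FPKM, with a log2 ratio of 0.00 (interval -0.08 to 0.09). Neither met the rule under any scaling tried. The ratio of DSP ran from -0.28 to 0.39 over the alternatives, so it has no stable direction, while that of PLEC stayed negative, from -0.49 to -0.05. PLEC stood to VIM as 0.305 in FPKM in the LINC00472 library against 0.124 in the control. The log2 difference of VIM against PLEC was -1.29 (interval -1.34 to -1.25), and -0.89 after the adjustment for transcript properties. DSP stood to the summed keratins as 0.0913 in the LINC00472 library against 0.0170 in the control. These FPKM ratios are not adjusted for transcript properties.

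Transcript length moved with these differences. Split into deciles by transcript length, protein-coding genes had a median log2 ratio of -1.39 at the short end and 0.29 at the long end. PLEC (15249 nt) and DSP (9796 nt) belong to the longest decile, where 5.57% of genes were lower, and both lay below its median. KRT17 (1517 nt), KRT18 (1562 nt) and KRT7 (1754 nt) belong to the second decile, with a median of -0.88 and 44.9% lower. KRT81 (1929 nt), KRT8 (2126 nt) and VIM (2135 nt) belong to the third, with a median of -0.59 and 34.2% lower, and KRT80 (3894 nt) to the seventh, with a median of -0.18 and 16.8% lower. Each of the 6 lower genes lay below the median of its own decile. Any gene called lower in these deciles must do so, because their medians fall short of 2-fold. KRT81 lay above the median of its decile. The part of length in the ratios was not tested. After adjustment for length, GC content and introns the log2 ratios were -2.34 for KRT18, -1.83 for KRT8, -1.77 for KRT80, -1.62 for KRT17, -1.38 for VIM and -1.37 for KRT7, so all 6 stayed beyond 2-fold, and were -0.49 for PLEC and -0.28 for DSP.

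**Figure D4:**
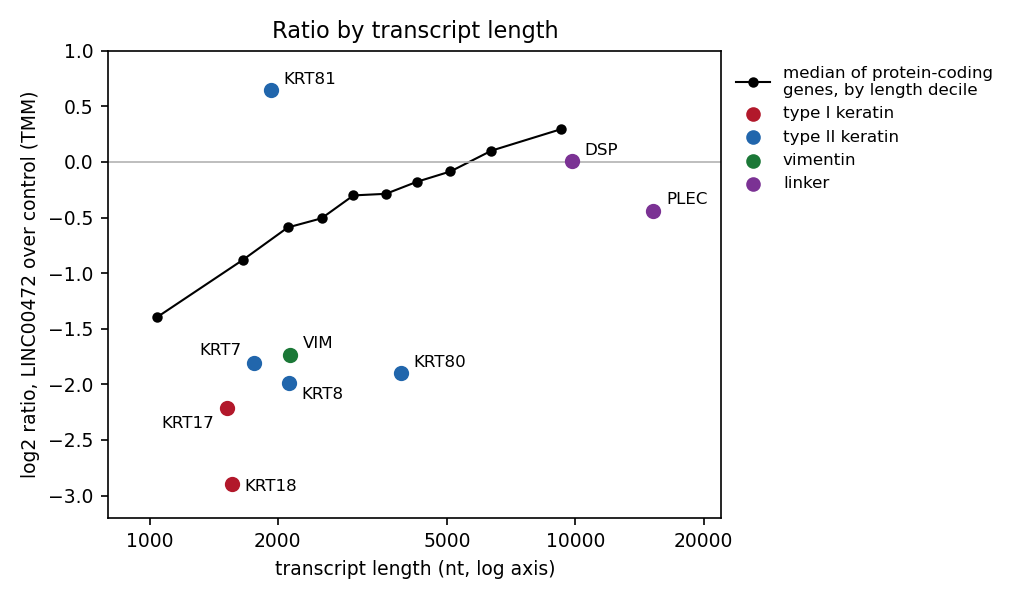
Log2 ratio of LINC00472 over control against transcript length in nt (log axis) for the 9 genes at the minimum, with the median of protein-coding genes in each decile of length (black line). The 6 lower genes lie below the line, which for their deciles follows from the 2-fold rule. KRT81 lies above the line, and PLEC and DSP lie below it at the long end.

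Upstream sequence was matched in the RefSeq promoter table for 3 of the 10 genes, and is shown because VIM and KRT8 were lower while DSP was not. Each line gives the 250 bases before the start listed there (build GRCh38.p14), which for KRT8 is an alternative start inside the gene. VIM lies at chr10:17227991-17228240 on the plus strand, KRT8 at chr12:52926470-52926719 on the minus strand and DSP at chr6:7541421-7541670 on the plus strand. Capitals mark matches, on either strand, to TGANTCA (the AP-1 motif), GGGCGG (the SP1 box), CCAAT (the CCAAT box) or TATAAA (the TATA box), and matches that overlap count once each:
VIM: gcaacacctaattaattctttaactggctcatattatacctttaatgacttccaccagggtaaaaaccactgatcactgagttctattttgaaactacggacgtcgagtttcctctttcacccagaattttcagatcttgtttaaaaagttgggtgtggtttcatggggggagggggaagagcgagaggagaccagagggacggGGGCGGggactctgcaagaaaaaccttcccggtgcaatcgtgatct
KRT8: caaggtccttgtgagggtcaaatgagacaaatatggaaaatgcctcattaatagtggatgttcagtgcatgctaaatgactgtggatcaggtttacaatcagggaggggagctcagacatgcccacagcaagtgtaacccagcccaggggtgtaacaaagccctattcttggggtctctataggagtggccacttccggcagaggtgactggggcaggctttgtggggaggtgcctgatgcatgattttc
DSP: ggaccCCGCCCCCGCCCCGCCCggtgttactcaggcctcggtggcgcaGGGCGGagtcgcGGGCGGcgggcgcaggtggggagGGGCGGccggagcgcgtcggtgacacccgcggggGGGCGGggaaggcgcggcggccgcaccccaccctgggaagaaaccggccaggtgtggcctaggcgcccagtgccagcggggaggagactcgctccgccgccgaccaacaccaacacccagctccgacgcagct
The DSP window held 7 SP1 boxes, the VIM window 1 and the KRT8 window none, and no window held a match to the other 3 motifs. Of 35116 windows of this length, 42.6% held an SP1 box, 32.0% a CCAAT box, 10.7% a TATA box and 6.57% an AP-1 motif.

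Most other keratins were scarce. Of 25 other type I keratins, 15 had no count in either library and 4 reached the minimum, of which 3 were lower and 0 higher. For this list and that of other type II keratins, 23.8% of all genes were lower and 16.3% higher. KRT13 and KRT16 reached the minimum only through the control, so their direction followed from the minimum. KRT13, of mucosal epithelium, had 0 counts in LINC00472 cells against 159 in the control (at least 24.9-fold lower, interval end at log2 -4.32), and KRT16, induced in wounded skin, had 3 in LINC00472 cells against 169 in the control (log2 ratio -4.59, interval -7.02 to -3.15). KRT10, a keratin of differentiated epidermis and the most abundant of the list, had 190 counts in LINC00472 cells against 900 in the control (log2 ratio -1.15, interval -1.39 to -0.93). KRT10 fell short of 2-fold under 6 of 12 alternatives, down to -0.77 with upper quartile factors and -0.81 after the adjustment. KRT15, a basal keratin named after its values were seen, had 14 counts in LINC00472 cells against 20 in the control (log2 ratio 0.56, interval -0.52 to 1.63), below the minimum. Of 22 other type II keratins, 14 had no count in either library. KRT5 and KRT6A reached the minimum, through the control alone, so that they could only be lower. KRT6A, a partner of KRT16 and KRT17, had 0 counts in LINC00472 cells against 407 in the control (at least 63.8-fold lower, interval end at log2 -5.69), and KRT5, the basal partner of KRT14, had 0 in LINC00472 cells against 395 in the control (at least 61.9-fold lower, interval end at log2 -5.65). Of 771 protein-coding genes with 300 to 500 counts in the control, 2 had 0 counts in the LINC00472 library, and they were KRT5 and KRT6A. That range of counts was chosen after the values were seen. The median count of these 771 genes in the LINC00472 library was 184. KRT79, an epidermal keratin also named after its values were seen, had 10 counts in LINC00472 cells against 0 in the control.

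The 6 squamous markers summed to 0.0162 FPKM in the LINC00472 library against 7.06 FPKM in the control, of which KRT5, KRT6A and KRT14 made up 6.61 FPKM. The 3 markers that are not keratins were low in both libraries. TP63, a transcription factor of basal epithelium, had 3 counts in LINC00472 cells against 53 in the control, DSG3 had 0 against 67 and IVL 0 against 4. Their part in the keratin results was not tested. Markers of other cells were low, apart from CD14 at 7.77 FPKM in the LINC00472 library against 2.75 in the control. The 6 fibroblast markers summed to 2.84 FPKM in the LINC00472 library against 3.57 in the control, with DCN at 0 in the LINC00472 library. Among the 4 at the minimum, 2 were lower, COL1A2 (log2 ratio -1.08) and COL3A1 (-1.62), and 0 higher. COL1A2 and COL3A1 reached the minimum only through the control, so their direction followed from the minimum. For this and the other marker lists, 23.8% of all genes were lower and 16.3% higher. The 5 neuroendocrine markers summed to 0.720 FPKM in the LINC00472 library against 2.38 in the control, with CHGA at 0 counts in the LINC00472 library against 177 in the control. The 4 blood cell markers summed to 7.90 FPKM in the LINC00472 library against 3.07 in the control, nearly all of it CD14. CD14 was higher, with 299 counts in LINC00472 cells against 256 in the control (log2 ratio 1.31, interval 1.07 to 1.56). PTPRC was at 0 in the LINC00472 library and at 32 counts in the control. Of the markers of lung epithelium, EPCAM had 48 counts in LINC00472 cells against 117 in the control, a log2 ratio of -0.19 (interval -0.71 to 0.30). CDH1 had 239 counts in LINC00472 cells against 368 in the control, a log2 ratio of 0.47 (interval 0.23 to 0.71). NAPSA, an aspartic protease of the alveolar lining, was higher, with 88 counts in LINC00472 cells against 66 in the control and a log2 ratio of 1.49 (interval 1.03 to 1.99). None of these 3 markers was lower, and NKX2-1, the lineage factor of the distal lung, had 0 counts in both libraries. The list of 8 markers of lung adenocarcinoma and epithelium also holds KRT7, KRT8, KRT18 and KRT19, described above. Of its 6 genes at the minimum, 3 were lower, namely KRT7, KRT8 and KRT18, and 1 was higher, namely NAPSA.

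Of 15 other intermediate filament proteins, 9 reached the minimum, with 6 lower, 0 higher and a median log2 ratio of -1.36. For this and the lists that follow, 23.8% of all genes were lower and 16.3% higher. DES, among the 6 lower genes, had 11 counts in LINC00472 cells against 79 in the control. It reached the minimum only through the control, so its direction followed from the minimum. The nuclear lamins were among the lower ones. LMNA, of lamins A and C and the most abundant of the list, had 4697 counts in LINC00472 cells against 31106 in the control, or 76.4 against 204 FPKM (log2 ratio -1.64, interval -1.68 to -1.59). LMNB2 had a log2 ratio of -1.83 (interval -1.92 to -1.75) and LMNB1 of -1.36 (interval -1.45 to -1.27). INA, a neuronal filament protein, had 31 counts in LINC00472 cells against 214 in the control (log2 ratio -1.69, interval -2.29 to -1.15). The count of lower genes in this list was 3 with upper quartile factors, where LMNB1 had -0.97, and 3 with FPKM, where INA had -0.89.

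Of 9 other plakins and hemidesmosome genes, 8 reached the minimum, with 3 higher, 2 lower and a median log2 ratio of 0.39 (0.05 after the adjustment). The 2 lower genes are a share near that of all genes. DST, the plakin dystonin and the most abundant of the list, had 52997 counts in LINC00472 cells against 44876 in the control, or 139 against 46.8 FPKM (log2 ratio 1.33, interval 1.31 to 1.35). MACF1, the plakin that links microtubules and actin, had 21018 counts in LINC00472 cells against 18465 in the control (log2 ratio 1.28, interval 1.25 to 1.305). ITGB4, the integrin chain that binds plectin in hemidesmosomes, had 751 counts in LINC00472 cells against 570 in the control (log2 ratio 1.49, interval 1.33 to 1.65). DST and MACF1 fell short of 2-fold after adjustment for transcript properties, with 0.24 and 0.27, and ITGB4 did not, with 1.53. EPPK1, epiplakin, had 29 counts in LINC00472 cells against 349 in the control (log2 ratio -2.49, interval -3.10 to -1.95), and at 16002 nt is about as long as PLEC. With FPKM its ratio was -0.95, short of 2-fold. CD151, a tetraspanin of hemidesmosomes, was lower with a log2 ratio of -1.29 (interval -1.36 to -1.21), which fell short of 2-fold with total counts (-0.997), upper quartile factors (-0.90), totals without the top 100 genes (-0.94) and the adjustment (-0.71).

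**Figure D5:**
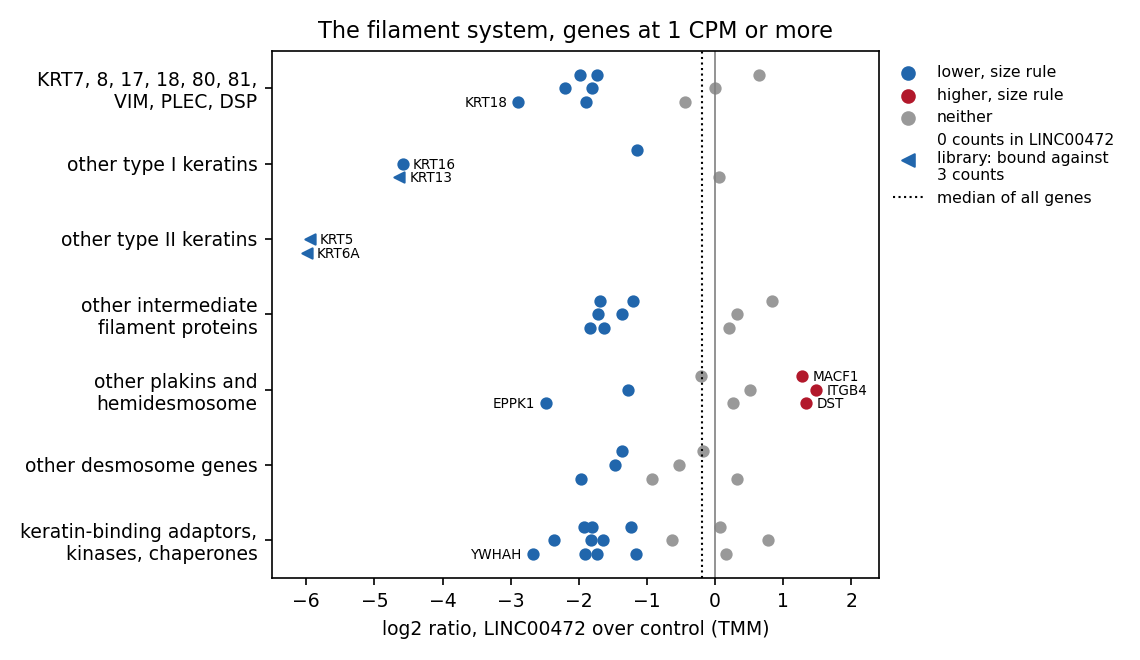
Log2 ratio of LINC00472 over control for genes of the filament system at 1 CPM or more, each point 1 gene, coloured by the size rule, with arrows for genes at 0 counts in the LINC00472 library drawn at their bound against 3 counts. KRT5, KRT6A and KRT13 lie at the far left, and DST, MACF1 and ITGB4 on the right.

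Of 13 other desmosome genes, 7 reached the minimum, with 3 lower, 0 higher and a median log2 ratio of -0.92. The plakophilins PKP3 and PKP2, which couple desmosomal cadherins to desmoplakin, were lower with log2 ratios of -1.96 (interval -2.21 to -1.73) and -1.48 (interval -1.93 to -1.06). PERP, a membrane protein of desmosomes and the most abundant of the list, had 2356 counts in LINC00472 cells against 12994 in the control (log2 ratio -1.37, interval -1.44 to -1.31). There were 2 lower genes with upper quartile factors, where PERP had -0.99, and 2 with FPKM + 0.5, where PKP2 had -0.83. PKP2 was at 0.502 FPKM in LINC00472 cells against 1.28 in the control, and the added 0.5 draws ratios at such levels toward equality. The cadherin DSG2 (log2 ratio 0.31, and -0.02 after the adjustment) and plakoglobin JUP (-0.92) did not meet the rule, and the stratified epithelium forms DSG3, DSC3 and PKP1 had 0 counts in LINC00472 cells against 67, 40 and 53 in the control. These last 5 genes were named after their values were seen.

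Of 14 adaptors, kinases and chaperones that bind keratins, all 14 reached the minimum, with 10 lower, 0 higher and a median log2 ratio of -1.69. All 7 genes of the 14-3-3 family, which binds phosphorylated KRT18, were lower, a count taken after the values were seen. Their log2 ratios ran from -2.68 for YWHAH to -1.65 for YWHAZ, the most abundant of the list at 124 FPKM in the LINC00472 library and 343 FPKM in the control. SFN, the epithelial 14-3-3 protein, had 96 counts in LINC00472 cells against 1052 in the control (log2 ratio -2.36, interval -2.68 to -2.06), and YWHAQ and YWHAB had log2 ratios of -1.92 and -1.91. The genes of the list that were not lower, also named after their values were seen, were PNN (log2 ratio 0.78), FBF1 (0.15), TCHP (0.07) and CSNK1A1 (-0.63). PNN passed 2-fold with upper quartile factors (1.17) and 2 other scalings. CSNK1A1 met the rule as lower after the adjustment for transcript properties (-1.04).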

How the data were processed

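RNA of NCI-H838 cells was sequenced in 1 library per group, and groups came from the sample titles. Per the file headers, the authors deposited read counts per gene, not normalized, and FPKM. The joint table and the table of each library held the same count for each of 27685 genes. The build is hg19, and the tools are HISAT2 2.1.0, StringTie 1.3.4b, Trimmomatic and bcl2fastq 2.20.0, per the submitters' processing notes. The strand setting is not given in the sources used here.

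Counts were scaled with TMM factors from edgeR 4.0.16 (R 4.3.3), 1.11 for LINC00472 and 0.905 for the control. Log2 ratios used a prior count of 0.5, and intervals were exact conditional (Clopper-Pearson) 95% intervals of a ratio of counts. Since reads may repeat a molecule and there was 1 culture a group, intervals and floors (3 counts) cover counting error only, and genes with few counts, such as KRT81, have wide ones. Differences between genes used conditional odds ratio intervals on the raw counts. GENCODE 29 (GRCh38) gave gene types and transcript properties, matched by transcript accession or gene ID, for 97.2% of genes at the minimum. Transcript length is that of the longest matched transcript. The adjustment was a linear regression on spline terms (5 knots, degree 3, scikit-learn 1.9.0). Coding sequences were aligned globally in place of the planned proteins, and upstream sequence is RefSeq's. DESeq2 1.42.0 served as an alternative scaling.

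The genes and lists were chosen with earlier results of these data known. In each list the text names the first 4 genes in each direction by interval bound and the most abundant one, and marks others. The procedure was tested on simulated data.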

Additional observations from a re-analysis of the deposited data

How the results depend on the processing

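With 1 library per group no replicate could be left out. No paired analysis was possible because each group holds 1 library. KRT18, KRT17, KRT8, KRT7, KRT80 and VIM met the rule under all 12 alternatives. These are not 12 independent checks, since the counts deposited per library were identical to those used and DESeq2 size factors nearly equalled TMM. The median of the 9 genes was -1.52 with total counts, -1.42 with upper quartile factors, -1.60 with TMM from protein-coding genes alone, -1.47 with totals that leave out the 100 most abundant genes, -1.54 with FPKM + 0.5 and -1.38 with adjusted ratios. KRT81 was 1 higher gene with upper quartile factors (25.1% of all genes were higher) and with adjusted ratios (12.9%). Among other intermediate filament proteins, 3 were lower with upper quartile factors and with FPKM + 0.5, and 1 was higher with total counts, upper quartile factors, TMM from protein-coding genes, totals without the top 100 and adjusted ratios. Of the plakins, 1 was lower with total counts, upper quartile factors, totals without the top 100, FPKM + 0.5, a minimum of 5 CPM and adjusted ratios, which also left 1 higher. Among keratin-binding genes, 1 was higher with total counts, upper quartile factors and totals without the top 100, each of which gave 8 lower. TMM from protein-coding genes, FPKM + 0.5 and adjusted ratios each gave 9 lower keratin-binding genes. A minimum of 0.1 CPM gave 7 lower of 9 other type I keratins and 4 lower and 1 higher of 6 other type II keratins. It gave 6 lower of 10 desmosome genes and added KRT19 as lower. At that minimum 22.0% of all genes were lower and 20.5% higher. The genes newly called there, apart from KRT9, had 0 counts in 1 library, so their direction followed from the minimum. A minimum of 5 CPM left 1 and 0 lower type I and type II keratins. KRT10 was not lower with total counts, upper quartile factors, TMM from protein-coding genes, totals without the top 100, FPKM + 0.5 and adjusted ratios, each of which gave 2 lower type I keratins. Desmosome genes counted 2 lower with upper quartile factors, FPKM + 0.5 and a minimum of 5 CPM. The causes were not tested. KRT19 and KRT81 rest on few counts, at most 44 and 65 in a library.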
